A study of Homo sapiens with 6 samples.

Results

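Aminoacyl-tRNA synthetases join each amino acid to its transfer RNA (tRNA), the step that gives the genetic code its meaning. Human cells keep largely separate sets of these enzymes for the cytosol and for the mitochondria, almost all encoded in the nucleus as separate genes. In the cytosol, several synthetases are held in one multi-synthetase complex by the scaffold proteins AIMP1, AIMP2 and EEF1E1. The transcription factor ATF4, which acts when amino acids run short or the endoplasmic reticulum is stressed, is known to raise many of the cytosolic synthetase genes in mammalian cells.

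The family described here holds 38 genes of the 60617 in the deposited table, matched by gene symbol to Ensembl identifiers. It comprises 19 genes of cytosolic synthetases, 16 of mitochondrial synthetases and 3 of the scaffold proteins. GARS1 and KARS1 are counted as cytosolic, although each is known to encode a cytosolic and a mitochondrial form of its enzyme. QARS1 has no mitochondrial partner gene, because mitochondria make glutaminyl-tRNA from tRNA that EARS2 has charged with glutamate.

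RNA was sequenced from NCI-H1299, a line grown from a human lung carcinoma. One group was labelled as a FuHsi knockdown and titled Sh1 (3 libraries), and the other was labelled WT and titled Puro (3 libraries), here called control. The labels do not spell out Sh1 or Puro, name no further agent, time or clone, and do not say that the libraries of a group came from separate cultures, so p-values measure only the spread between these libraries, which may be technical. No gene symbol is given for FuHsi in the sources used here, so the depletion of its own transcript was not analysed.

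Library totals ran from 24231515 to 27900051 counts in knockdown and from 30735547 to 34306849 in control. All 3 knockdown libraries were shallower than all control libraries. Of 7 markers of lung adenocarcinoma, SFTPC had no count, and the summed level of the list was 6.93 to 7.73 CPM (the usual scaling of counts by library size) in knockdown and 2.96 to 3.53 CPM in control. SFTPC, EPCAM, NKX2-1 and SFTPB were under the filter on low counts. KRT7 (1.72) and NAPSA (3.22) passed it and rose on the log2 scale, and MUC1 (0.57) passed it and was not called, all at low levels of at most 4.53 CPM in a library. VIM, ZEB1 and CDH2, markers of a mesenchymal type of carcinoma cell, summed to 940 to 994 CPM in knockdown and 1460 to 1500 CPM in control. Most of that sum was VIM, which fell (-0.70), while ZEB1 rose (0.45) and CDH2 was not called (-0.01). Markers of blood, fibroblast and endothelial cells summed to 3.94 to 5.07 CPM in knockdown and 2.91 to 3.49 CPM in control, over 7 genes. Their part in the results was not tested, and in bulk RNA fewer cells of a type and less RNA per cell cannot be told apart.

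Counts were scaled to CPM with TMM factors (trimmed mean of M values) and tested gene by gene with edgeR's quasi-likelihood test, and a gene was called at a Benjamini-Hochberg adjusted p under 0.05 over all tested genes. Log2 fold changes compare knockdown with control, a positive one being higher in knockdown, and carry a standard error (SE). Many genes of these cells were called: 61.6% of 17223 tested genes passed the threshold, 30.7% higher and 30.9% lower. Of the 38 genes, 37 passed the filter on low counts. SARS2, the mitochondrial seryl-tRNA synthetase, did not, with 9, 4 and 5 counts in the knockdown libraries and 10, 8 and 15 in the control libraries. Other annotated genes, MRPS12 among them, cover 57.0% of the exonic bases of SARS2, and how the counting treated reads of more than one gene is not given in the sources used here.

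Stretches of the gene starts are shown first, because motif matches in them are set beside the results. The RefSeq promoter windows (GRCh38.p14, 250 bases before to 50 after a start) covered 33 of the 38 genes in 45 windows. LARS1, VARS1, YARS1, AARS2 and VARS2 had no window. The motif TGATGNAA, the composite element to which ATF4 and C/EBP proteins are known to bind, was searched on both strands. It was found for 7 of 16 cytosolic genes with a window, for 1 of 14 mitochondrial genes (YARS2) and for 0 of 3 scaffold genes. Of all 27305 genes with a RefSeq promoter window, whether or not expressed in these cells, 4.46% had it. The 7 cytosolic matches are given below as 30 bases read 5′ to 3′ on the strand of the gene, with the match in capitals. In all but NARS1 the motif lies on the opposite strand, so that it reads as its reverse complement.
AARS1 (chr16:70289675-70289704, minus strand): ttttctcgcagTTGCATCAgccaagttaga
CARS1 (chr11:3057407-3057436, minus strand): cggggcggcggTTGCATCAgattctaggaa
GARS1 (chr7:30594834-30594863, plus strand): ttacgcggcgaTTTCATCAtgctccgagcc
IARS1 (chr9:92293692-92293721, minus strand): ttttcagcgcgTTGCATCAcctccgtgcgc
MARS1 (chr12:57488053-57488082, plus strand): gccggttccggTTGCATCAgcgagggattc
TARS1 (chr5:33440956-33440985, plus strand): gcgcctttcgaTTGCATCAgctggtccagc
NARS1 (chr18:57621804-57621833, minus strand): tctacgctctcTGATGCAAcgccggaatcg

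In 6 of these 7 genes the match began between positions -33 and 14 from a start, and in AARS1 it began at -187. Measured against the counts, 6 of the 7 cytosolic genes rose in knockdown, and the exception, NARS1, was not called. YARS2, the mitochondrial gene with a match, fell (-0.16). Of all tested genes, 30.7% rose and 30.9% fell. Among the cytosolic genes with a window, the match was present in 6 of 8 that rose and in 0 of 7 that fell. These matches are descriptions of letters in a window and show no binding. All 7 cytosolic genes are also on the list of reported ATF4 targets used below, which was written with earlier results of these data known. The matches and that list are therefore not separate lines of evidence.

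WARS1 had no such match but held another one. It is known to be induced by interferon, and its gene start contained the core of the interferon-stimulated response element, at position -55 from one annotated start (capitals).
WARS1 (chr14:100375383-100375412, minus strand): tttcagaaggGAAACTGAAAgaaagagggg
This motif was found on either strand for 4.38% of all genes with a promoter window, and among the family only for WARS1 and EARS2, of which EARS2 fell. TTCNNNGAA, the gamma-activated site, was found for CARS1, TARS1, WARS1, PARS2 and WARS2, against 9.38% of all genes with a promoter window.

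In knockdown, 11 of the 37 genes rose, 21 fell and 5 were not called. Among all tested genes, 30.7% were higher and 30.9% lower. Of the cytosolic synthetase genes, 9 rose, 9 fell and 1 was not called. Of the 15 mitochondrial genes tested, 2 rose, 9 fell and 4 were not called, and all 3 scaffold genes fell. The medians were -0.04, -0.19 and -0.95 in that order, against 0.03 over all tested genes. With library size alone as the scaling, which raised the median of all genes to 0.18, the medians were 0.11, -0.04 and -0.80. The cytosolic mean was 0.04, so that mean and median differed in sign.

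**Figure D1:**
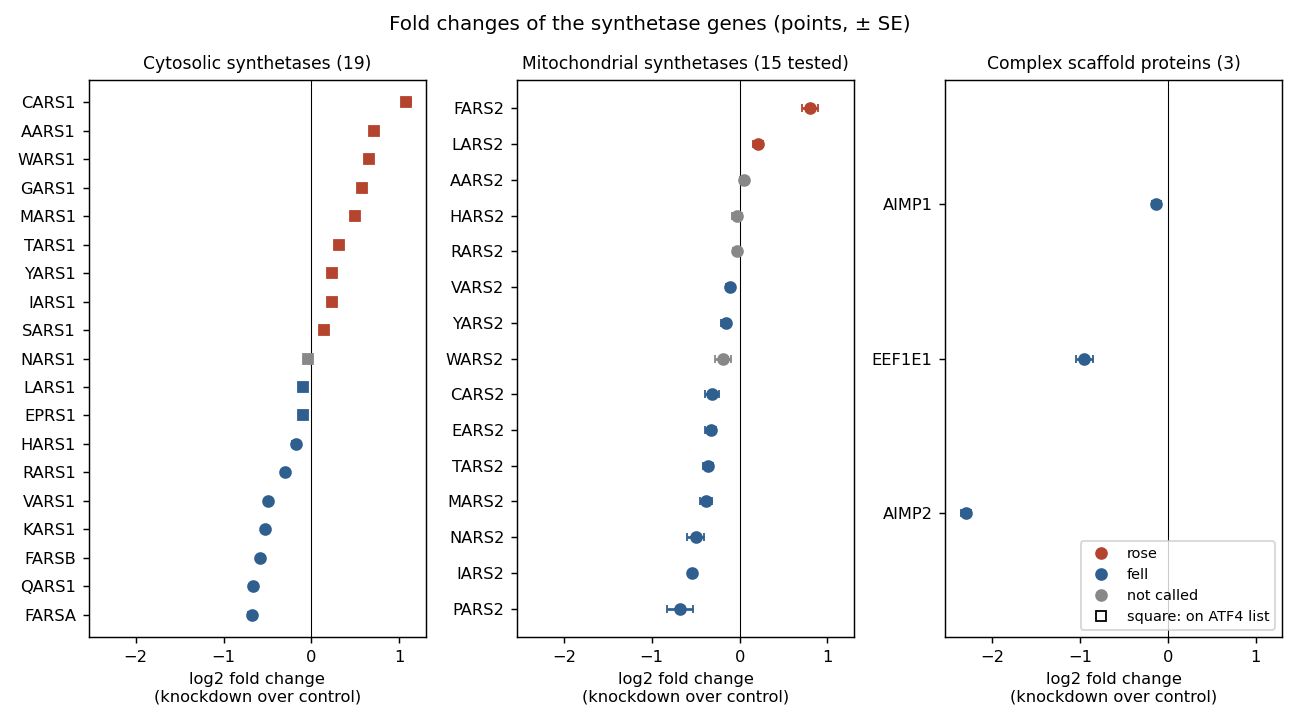
Log2 fold change, knockdown over control, of the 37 tested genes (points, with SE as bars), in panels for cytosolic synthetases, mitochondrial synthetases and scaffold proteins. Red marks genes that rose, blue those that fell and grey those not called. Squares mark the 12 cytosolic genes on the list of reported ATF4 targets, of which 9 rose, while all 7 cytosolic genes off the list (circles) fell. The list was written with earlier results of these data known. Among all tested genes, 30.7% were higher and 30.9% lower. In the highest of 5 abundance classes, which holds all 19 cytosolic genes, 923 were higher and 2084 lower of 3445.

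Abundance bears on these counts. All 19 cytosolic genes were in the highest of 5 equal classes of tested genes by mean level, in which 87.3% were called, 923 higher and 2084 lower of 3445, with a median of -0.21. Of the mitochondrial genes, 8 were in the class below it, in which 78.2% were called, 1118 higher and 1575 lower. A share of called genes near these values is therefore the background for such levels. By a stricter rule, called and changed by at least 0.5 log2 units, 4 cytosolic genes rose and 4 fell, and 1 mitochondrial gene rose and 3 fell, where 19.5% of all tested genes were higher and 13.8% lower. The rule was applied before rounding, so that MARS1, printed as 0.50, was just under it and NARS2, printed as -0.50, just past it, and 5 cytosolic genes rose by this rule in some alternative settings.

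The cytosolic set was divided between genes reported as ATF4 targets in other cells and the rest. The list of these targets was written from general knowledge. Earlier results of these data were then known, among them that ATF4-linked genes were higher, so the split is a description and no independent result. Of all tested genes, 30.7% were higher and 30.9% lower. Of 12 genes on that list, 9 rose (CARS1, AARS1, WARS1, GARS1, MARS1, TARS1, YARS1, IARS1 and SARS1), 2 fell (LARS1 and EPRS1) and NARS1 was not called, with a median of 0.27. All 7 genes off the list fell (FARSA, QARS1, FARSB, KARS1, VARS1, RARS1 and HARS1), with a median of -0.53. Scaled by library size alone, the list had a median of 0.42 and the rest one of -0.37, with 10 higher and 0 lower on the list, and 0 higher and 6 lower off it. Across the 13 alternative settings, all fitted to these same libraries, 8 to 10 genes on the list were higher and 0 off it were. By membership of the complex, 2 of 7 synthetases of the complex rose and 5 fell, and 7 of 12 outside it rose and 4 fell. The falls in the complex numbered 3 with library size alone, with upper-quartile factors, or without control replicate 1, control replicate 2 or knockdown replicate 2. Outside the complex, 6 to 8 rose and 3 to 4 fell across the 13 alternative settings. Of the structural classes that divide all synthetases, 5 of 9 class I cytosolic genes rose and 4 fell, and 4 of 9 class II genes rose and 4 fell. EPRS1, whose protein joins a class I and a class II enzyme, is in neither count.

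CARS1, which charges cysteine tRNA, had the largest rise. Its gene lies at chr11:3000922-3057613 on the minus strand (GRCh38, GENCODE v29). It was at 119.8, 130.8 and 144.8 CPM in knockdown, against 59.5, 63.4 and 63.9 CPM in control. The groups did not overlap, as was true of 65.3% of all tested genes. The log2 fold change was 1.08 ± 0.05 (SE), an edgeR adjusted p of 1.29e-20, or 2.12-fold. CARS1 was the lowest of the cytosolic genes per length in both groups. It was at 13.1 CPM per kilobase of exon (RPKM) in knockdown and 6.21 RPKM in control. The length used was that of all its annotated exons, 10037 bases. By mean CPM in knockdown, FARSB (73.4), FARSA (126.2) and QARS1 (127.0) were lower than CARS1 (131.8).

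AARS1, the alanine enzyme, was at 342.4, 364.1 and 383.6 CPM in knockdown, against 214.9, 229.0 and 224.4 CPM in control. It rose by 0.71 ± 0.04 with an edgeR adjusted p of 2.47e-24. Every knockdown library lay above every control library. WARS1, the tryptophan enzyme, was at 312.0, 342.7 and 367.7 CPM in knockdown and 212.8, 212.4 and 223.2 CPM in control, a rise of 0.66 ± 0.04. Its exons share 10.6% of their bases with other genes, among them WDR25, which was at 0.96, and the part of those reads was not tested.

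GARS1 charges glycine tRNA in both compartments. It was at 439.0, 463.7 and 519.7 CPM in knockdown, against 310.0, 318.4 and 319.8 CPM in control, and rose by 0.58 ± 0.04 (edgeR adjusted p of 4.92e-10). KARS1, the lysine enzyme that also serves both compartments and is part of the complex, went the other way. It was at 287.2, 293.9 and 291.9 CPM in knockdown, against 423.1, 418.5 and 414.8 CPM in control, a fall of -0.53 ± 0.03 (edgeR adjusted p of 6e-22). The groups of neither gene overlapped, and the knockdown values were closer to each other for KARS1 than for GARS1. Per length, GARS1 ranked 1 of the 38 genes in knockdown at 114 RPKM and 4 in control at 76.1 RPKM, and KARS1 ranked 5 in knockdown at 71.6 RPKM and 1 in control at 103 RPKM.

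**Figure D2:**
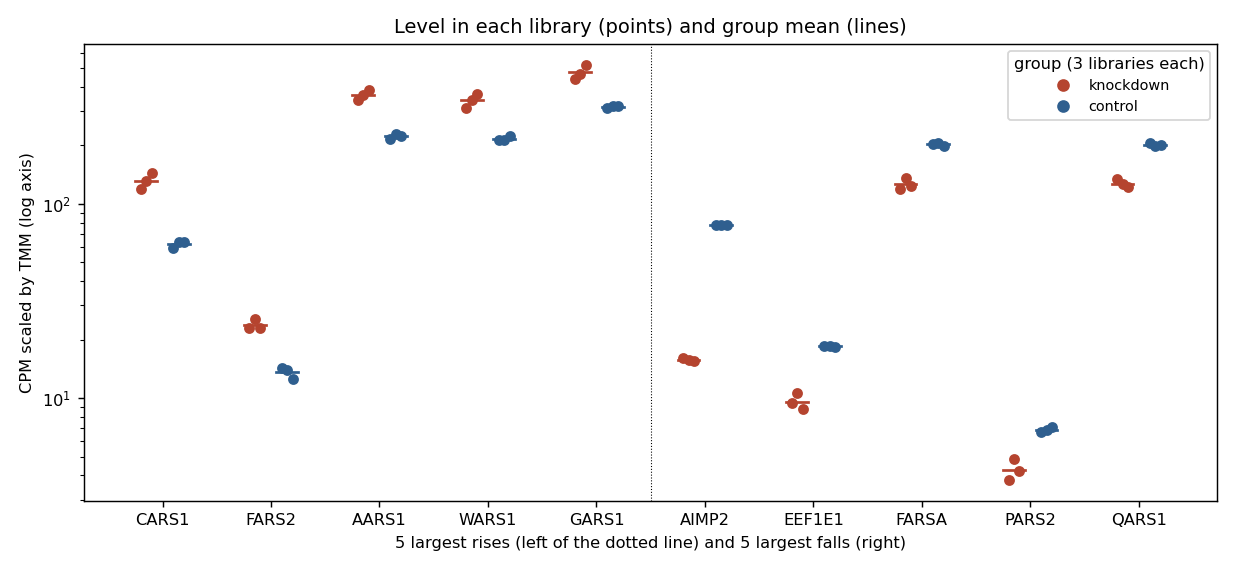
CPM scaled by TMM on a log axis in each library (points; knockdown red and to the left, control blue) with the mean of 3 libraries (lines), for the 5 largest rises and the 5 largest falls of the family. These genes were picked by the size of their called change. The groups do not overlap for any of the 10, as was true of 65.3% of all tested genes. AIMP2 is furthest apart, at 15.5 to 15.99 CPM in knockdown and 77.5 to 78.2 CPM in control.

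The other 5 cytosolic genes that rose had smaller fold changes. MARS1, the methionine enzyme of the complex, averaged 441.5 ± 21.6 CPM in knockdown and 313.3 ± 10.03 CPM in control (SD, n = 3 each), a rise of 0.50. Other genes overlap 13.3% of the exonic bases of MARS1, one of them DDIT3, a stress-induced transcription factor gene at 60.8 to 72.4 CPM in knockdown and 9.9 to 10.1 CPM in control. The part of those reads in the count of MARS1 was not tested. TARS1 (threonine) rose by 0.31, IARS1 (isoleucine, in the complex) by 0.23, YARS1 (tyrosine) by 0.23 and SARS1 (serine) by 0.14. IARS1 had the highest CPM of the family in both groups, at 654 ± 28.99 in knockdown and 557 ± 11.3 in control. SARS1 was the 1 riser whose groups overlapped, and without knockdown replicate 2 it was at 0.08 and not called.

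The knockdown libraries differed among themselves. Of the 9 cytosolic genes that rose, knockdown replicate 3 was the highest of the knockdown libraries for 8 and knockdown replicate 1 the lowest for 8. Of the 9 that fell, replicate 3 was the highest for 4 and replicate 1 the lowest for 5. The coefficient of variation of these genes had a median of 6.69% in knockdown and 3.20% in control. For those that fell the median was 3.56% in knockdown and 1.66% in control. Stress response genes that rose, described further on, had their highest summed level in knockdown replicate 3 (2878 CPM). Their lowest among knockdown libraries was in replicate 1 (2491 CPM), against 1279 to 1334 CPM in control. Both sets were picked for having risen. Whether all genes that rose share this order of libraries was not tested.

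FARSA and FARSB encode the subunits of the cytosolic phenylalanine enzyme, and both fell. FARSA was at 119.5, 135.7 and 123.4 CPM in knockdown, against 203.9, 204.5 and 199.1 CPM in control, a log2 fold change of -0.68 ± 0.04 (edgeR adjusted p of 2.27e-22). FARSB averaged 73.4 ± 1.06 CPM in knockdown and 109.6 ± 2.75 CPM in control, at -0.58 ± 0.04. Neither gene's groups overlapped. In RPKM, FARSA ranked 11 of the family in knockdown at 51.8 and 2 in control at 83.2.

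QARS1, the glutamine enzyme of the complex, was at 133.4, 126.3 and 121.5 CPM in knockdown, against 204.5, 198.3 and 200.6 CPM in control. Its log2 fold change was -0.66 ± 0.04, with an edgeR adjusted p of 1.13e-22, and all knockdown values lay below all control values. VARS1, the valine enzyme, was at -0.49 and RARS1, the arginine enzyme of the complex, at -0.30. HARS1, the histidine enzyme, was at -0.18, and with library size alone it was at -0.03 and not called.

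The remaining cytosolic genes were near their control level. LARS1 (leucine) and EPRS1 (glutamate and proline), both of the complex, were called at -0.09 each. Their direction turned with library size alone, to 0.06 for each with no call, and both lost the call with upper-quartile factors (-0.03 each). Both also lost it without control replicate 1, control replicate 2 or knockdown replicate 2, at -0.09 to -0.07. NARS1 (asparagine) was at 252.7 ± 4.69 CPM in knockdown and 259.6 ± 10.1 CPM in control and was not called (-0.04, edgeR adjusted p of 0.334). With library size alone NARS1 was called at 0.11.

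**Figure D3:**
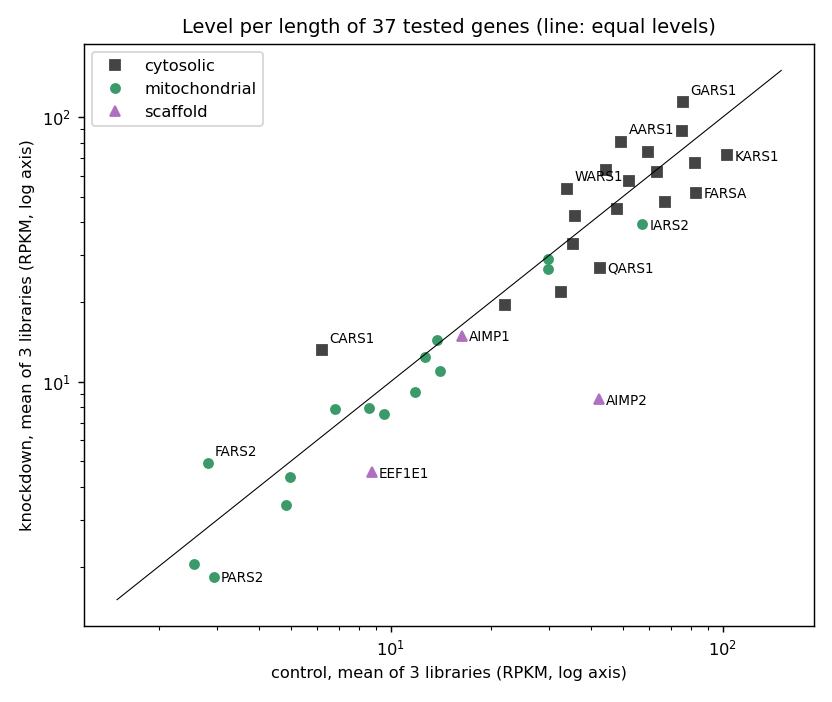
Mean level per length (RPKM, mean of 3 libraries) of the 37 tested genes in knockdown (vertical, log axis) against control (horizontal, log axis), with a line of equal levels. Cytosolic genes (squares) lie between 13.1 and 114 RPKM in knockdown and mitochondrial genes (circles) mostly below them, and AIMP2 lies furthest below the line.

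Among the scaffold genes, AIMP2 had the largest change of the family. It encodes the core scaffold of the complex, to which the lysine enzyme binds, and lies at chr7:6009245-6023834 on the plus strand. AIMP2 was at 15.99, 15.8 and 15.5 CPM in knockdown, against 78.2, 77.9 and 77.5 CPM in control. The libraries of each group were close together, and the groups were far apart. The log2 fold change was -2.30 ± 0.06, with an edgeR adjusted p of 6.47e-39, or 4.94-fold lower, and 0.0929% of all tested genes had a lower value. AIMP2 shares 28.9% of its exonic bases with EIF2AK1, on the opposite strand, which was at -0.21.

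EEF1E1 was at 9.40, 10.6 and 8.77 CPM in knockdown, against 18.5, 18.6 and 18.3 CPM in control. Its protein is known to bind the methionine enzyme in the complex. The log2 fold change was -0.95 ± 0.10 (edgeR adjusted p of 1.22e-12), with no overlap of the groups. EEF1E1 shares 18.6% of its exonic bases with the read-through gene EEF1E1-BLOC1S5, whose row held no counts. A processed pseudogene of EEF1E1, EEF1E1P1, had 75 counts over the 6 libraries, and no other annotated pseudogene of the family had more than 4.

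AIMP1, which holds the arginine and glutamine enzymes in the complex, changed least of the scaffold genes. It was at 49.1, 49.4 and 50.5 CPM in knockdown, against 53.7, 55.6 and 54.2 CPM in control, and was called at -0.13 (edgeR adjusted p of 0.0272). That call was lost without control replicate 2 or knockdown replicate 1 (-0.13 each) and with upper-quartile factors (-0.07), and with library size alone AIMP1 was at 0.02. AIMP1 shares 11.6% of its exonic bases with TBCK, on the opposite strand, which was at 0.34. In RPKM, AIMP2 averaged 8.58 in knockdown and 42.4 in control, and AIMP1 14.9 in knockdown and 16.4 in control, so the order of these scaffold genes per length differed between the groups. EEF1E1 was below AIMP1 in both, at 4.55 RPKM in knockdown and 8.77 RPKM in control.

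Transcripts of the mitochondrial enzymes had a lower median per length, at 7.98 RPKM in knockdown and 9.52 RPKM in control. That of the cytosolic genes was 53.6 RPKM in knockdown and 49.5 RPKM in control. IARS2, the mitochondrial isoleucine enzyme, was the highest of them, at 39.4 RPKM in knockdown and 57.2 RPKM in control. It had 173.6, 159.2 and 159.3 CPM in knockdown, against 232.1, 239.1 and 243.0 CPM in control, a log2 fold change of -0.54 ± 0.04 (edgeR adjusted p of 2.41e-19). The groups did not overlap.

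PARS2, the mitochondrial proline enzyme, was among the lowest genes of the family. It was at 3.79, 4.85 and 4.23 CPM in knockdown, against 6.73, 6.81 and 7.10 CPM in control, a fall of -0.68 ± 0.15 (edgeR adjusted p of 6.77e-05). Its SE was the widest of the mitochondrial genes tested. NARS2 was at -0.50, MARS2 at -0.38, TARS2 at -0.36, EARS2 at -0.33 and CARS2 at -0.31. All were called, with groups that did not overlap, as for 65.3% of all tested genes. With library size alone CARS2 was at -0.16 and not called.

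Smaller falls were called for YARS2 (-0.16) and VARS2 (-0.11). YARS2 lost its call without knockdown replicate 1 (-0.12), with upper-quartile factors (-0.10) and with library size alone (-0.01). VARS2 lost it in 8 of 13 settings, among them without control replicate 1 or 3 (-0.10 each), without knockdown replicate 1 (-0.12) or 3 (-0.11) and with the replicate number as a block (-0.11), and was at 0.04 with library size alone. WARS2 was not called at -0.19 (edgeR adjusted p of 0.0598), and was called without control replicate 3 (-0.27) and with relative log expression factors (-0.20). VARS2 shares 22.0% of its exonic bases with GTF2H4, which had at most 8 counts in a library. AARS2, HARS2 and RARS2 were at 0.05, -0.03 and -0.03 and were not called. HARS2 shares 15.8% of its exonic bases with HARS1 and ZMAT2, which were at -0.18 and 0.23. With library size alone AARS2 was called at 0.21 and RARS2 at 0.12.

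FARS2 and LARS2 were the mitochondrial genes that rose. FARS2, the mitochondrial phenylalanine enzyme (chr6:5261044-5829192, plus strand), was at 22.8, 25.6 and 22.9 CPM in knockdown, against 14.3, 14.0 and 12.5 CPM in control. All knockdown values were above all control values, and the log2 fold change was 0.80 ± 0.09 (edgeR adjusted p of 5.14e-12), or 1.75-fold. LARS2, the mitochondrial leucine enzyme, was at 53.1, 50.9 and 56.8 CPM in knockdown, against 44.3, 47.6 and 46.9 CPM in control, a rise of 0.21 ± 0.06.

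Summed over genes, the compartments can be compared within each library. Cytosolic synthetase genes took 0.577% ± 0.0215 of all counts in knockdown and 0.489% ± 0.00327 in control (mean ± SD, n = 3 each). Mitochondrial genes took 0.0755% ± 0.00111 in knockdown and 0.0789% ± 0.000965 in control. The ratio of summed cytosolic to summed mitochondrial counts, which does not depend on scaling between libraries, was 7.29, 7.71 and 7.95 in the knockdown libraries, against 6.23, 6.16 and 6.18 in the control libraries. All knockdown ratios lay above all control ratios, and the difference of the log2 ratios was 0.30. On the mean of log2 CPM over genes, in which each gene weighs the same, it was 0.21. No p-value is given for these sums or for the pairs of genes that follow, since the genes were chosen with earlier results known. Summed CPM on the TMM scale was 5481 ± 219.5 in knockdown and 5157 ± 52.6 in control for the cytosolic genes, and 717 ± 5.99 in knockdown and 833 ± 13.2 in control for the mitochondrial genes.

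**Figure D4:**
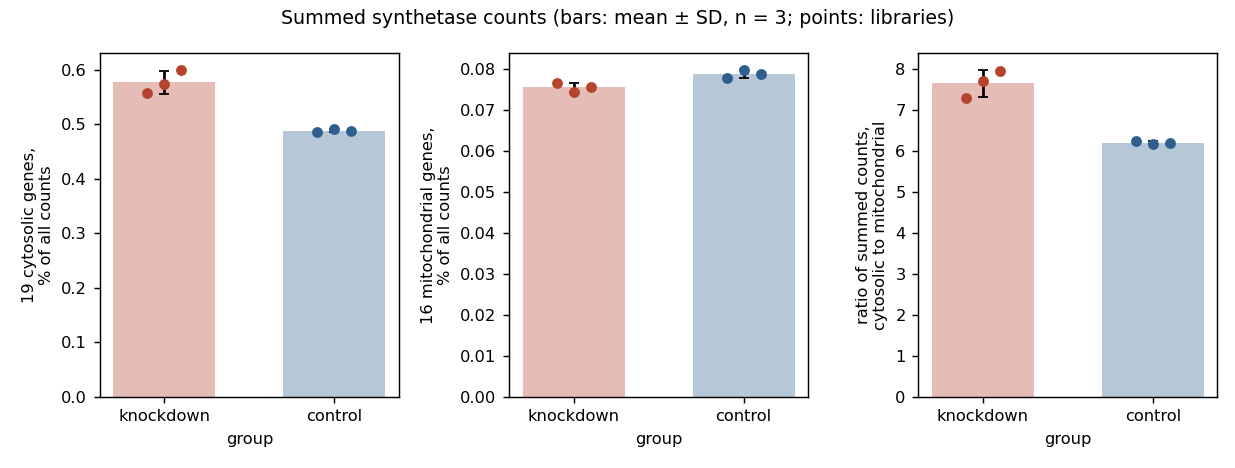
Summed counts of the 19 cytosolic and 16 mitochondrial synthetase genes as a percentage of all counts, and the ratio of the sums, in knockdown (red, left) and control (blue, right); bars are the mean ± SD of 3 libraries and points are libraries. The ratio is 7.29 to 7.95 in knockdown and 6.16 to 6.23 in control.

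Counts of a cytosolic gene and its mitochondrial counterpart can be compared within each library, and 16 such pairs could be formed among tested genes, with EPRS1 paired with EARS2 and with PARS2, and FARSA and FARSB each paired with FARS2. In 8 pairs, 2 of which share FARS2, both genes were called and in opposite directions, in 3 both fell and in 0 both rose. With 9 cytosolic genes higher and 9 lower, and 2 mitochondrial genes higher and 9 lower, these counts are a description and are not read as particular to the pairs. The count ratio lay higher in all knockdown libraries than in all control libraries for 10 pairs and lower for 5. It overlapped for HARS1 and HARS2. No share over other pairs of genes was computed to set beside these counts. Of single tested genes, 65.3% had groups that did not overlap. Pairs that share EPRS1 or FARS2 are not independent of each other.

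CARS1 over CARS2 had the widest shift toward the cytosolic gene, with a mean log2 count ratio of 2.62 ± 0.26 in knockdown and 1.22 ± 0.08 in control (SD, n = 3 each). The shift was 0.88 for MARS1 over MARS2, 0.84 for WARS1 over WARS2 and 0.77 for IARS1 over IARS2. Phenylalanine showed the reverse. The log2 ratio of FARSA over FARS2 was 2.41 ± 0.02 in knockdown and 3.90 ± 0.08 in control, and that of FARSB over FARS2 was 1.63 ± 0.09 in knockdown and 3.01 ± 0.11 in control. Leucine, valine and arginine also shifted toward the mitochondrial gene, by -0.30, -0.38 and -0.27.

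**Figure D5:**
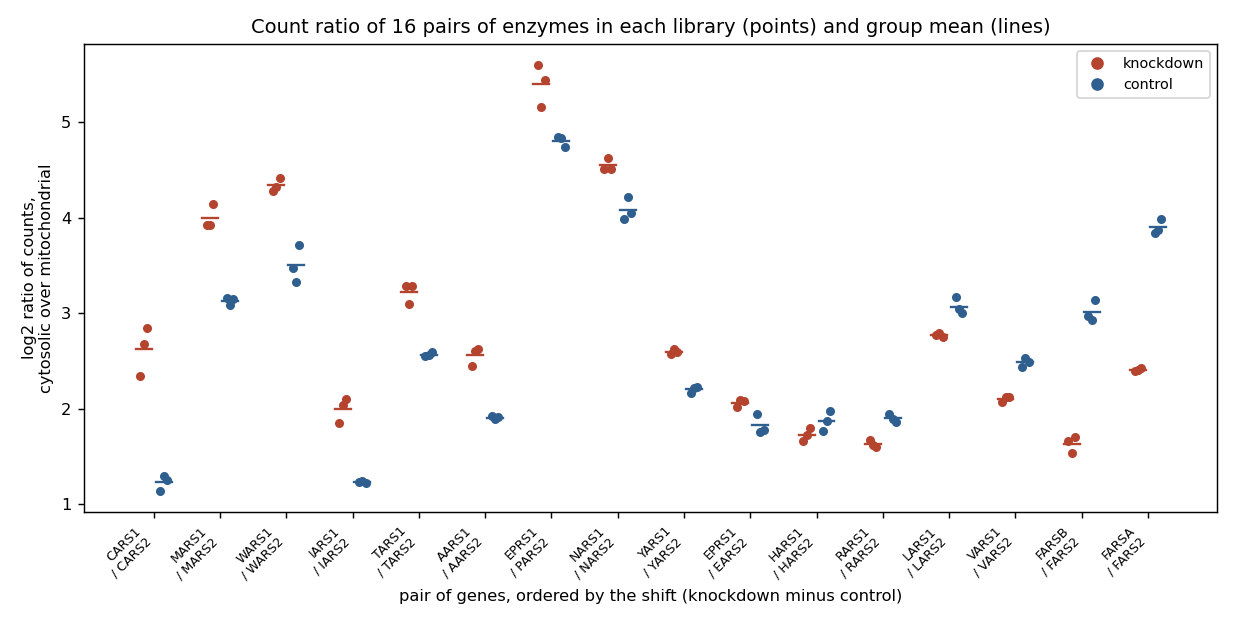
Log2 ratio of counts, cytosolic over mitochondrial gene, for 16 pairs in each library (points; knockdown red and to the left, control blue) with group means (lines), ordered by knockdown minus control. The pairs run from CARS1 over CARS2, with a shift of 1.40, to FARSA over FARS2, with a shift of -1.49.

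Of 32 genes that mature tRNAs or carry charged tRNAs, 31 were tested, 20 fell, 6 rose and 5 were not called, with a median of -0.33. Over all tested genes 30.9% were lower and the median was 0.03, and in the highest abundance class 2084 of 3445 were lower. Genes of this list, MTFMT, RPP40 and AARSD1 among them, also lay below that class, where fewer genes were lower. It was 1575 of 3444 in the next class, 998 of 3445 in the middle one and 499 of 3444 in the one under that. MTFMT, which formylates the methionyl-tRNA that MARS2 makes in mitochondria, fell by 1.76 on the log2 scale and was at 9.06, 8.44 and 5.83 CPM in knockdown, against 25.9, 27.3 and 26.4 CPM in control (edgeR adjusted p of 8.54e-21). RPP40 and POP1, subunits of the RNase P family that trims tRNA 5′ ends, were at -1.01 and -0.83, and EEF1A2, which brings charged tRNA to the ribosome, at -0.83. The rises were led by AARSD1, an editor of mischarged alanine tRNA, at 0.93. Next were SEPSECS, which makes selenocysteine on its tRNA, at 0.88, RPP38 at 0.59 and PRORP, the nuclease of mitochondrial RNase P, at 0.44. The overlap with other genes covers 34.2% of the exonic bases of AARSD1, 26.9% of RPP38 and 46.0% of PRORP. The subunits of the amidotransferase that completes mitochondrial glutaminyl-tRNA, named after their values were seen, were split, with QRSL1 at -0.17, GATC at -0.56 and GATB at 0.35.

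Of 23 genes of the amino acid stress response, a list that also holds kinases of other stresses, 17 rose, 2 fell and 4 were not called. The median was 1.19, where 30.7% of all tested genes were higher. NUPR1, a stress-induced chromatin protein, rose by 3.89 on the log2 scale, at 2.28 CPM in knockdown and 0.149 CPM in control. SLC7A11, the cystine transporter, was at 3.03, ASNS, asparagine synthetase, at 2.75 and DDIT3 at 2.71. Other genes overlap 44.6% of the exonic bases of ASNS and 39.6% of those of DDIT3. The genes that fell were VLDLR (-0.27) and EIF2AK1 (-0.21), a kinase of the stress response, and with library size alone neither was lower. Of further kinases on the list, named after their values were seen, EIF2AK2 rose (2.03). EIF2AK3 (0.17) and EIF2AK4 (-0.02) were not called. ATF4 itself, named after its values were seen, was at 325.4, 317.2 and 331.6 CPM in knockdown, against 327.8, 335.6 and 355.4 CPM in control, and was not called (-0.06, edgeR adjusted p of 0.0925). ATF4 is known to be controlled mainly in its translation, which counts of RNA do not measure.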

How the data were processed

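Total RNA of 6 NCI-H1299 libraries was sequenced, 3 of the FuHsi knockdown and 3 of the control. The deposited table holds counts per gene, which the authors made without normalization, and the submitters' processing notes name Trim Galore 0.6.6, STAR 2.7.0d, featureCounts 2.0.1, DESeq2 1.30.1 and the hg38 build. The strand setting, annotation release and treatment of reads of several genes are not stated there or in the labels, so overlapping genes may share reads.

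Groups were taken from the labels. Genes were filtered with filterByExpr (minimum count 10), scaled by TMM and tested with edgeR 4.0.16 (limma 3.58.1, R 4.3.3) by the quasi-likelihood test on the counts as deposited, with Benjamini-Hochberg adjustment over 17223 genes and a threshold of 0.05. The SE is the log2 fold change divided by the root of the F value. RPKM uses the union of GENCODE v29 exons. The common biological coefficient of variation was 4.67%. Replicates of a group differed beyond sampling noise.

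All tested members are given. Of the tRNA and stress lists, up to 4 rises and 4 falls with the largest fold changes were named. Members and lists were chosen with earlier results of these data known, among them that ATF4-linked genes were higher. The list of reported ATF4 targets was written from general knowledge and is not independent of those results. Alternatives were DESeq2 1.42.0, other scaling factors, no filter, a replicate block, thinning to the smallest library and leaving out each library.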

Additional observations from a re-analysis of the deposited data

How the results depend on the processing

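Of the 37 tested members, 25 had the same call in all 13 alternative settings and 12 changed in at least 1. DESeq2 gave the same call for 37 and the replicate block for 36, VARS2 being lost at -0.11. Replicate numbers are shared between groups, but libraries of the same number did not deviate together (correlations of -0.000751, -0.00642 and -0.0235), so the numbers were not taken to pair them. With the replicate block 5214 of all genes were higher and 5263 lower, with 9 and 9 cytosolic and 2 and 8 mitochondrial genes. Scaling mattered most. With library size alone, the genes lower by at least 0.5 log2 units numbered 1430 of all genes, 2 cytosolic and 1 mitochondrial, 4 mitochondrial genes were higher and 0 stress genes lower. The medians were then 0.18 for all genes, 0.11 for cytosolic and -0.04 for mitochondrial genes, and EPRS1 (0.06), LARS1 (0.06), NARS1 (0.11), RARS2 (0.12), VARS2 (0.04) and AIMP1 (0.02) turned direction. Upper-quartile factors gave medians of 0.09, 0.02 and -0.13, and 1 mitochondrial gene lower by at least 0.5. The median of all genes was 0.01 with DESeq2 and 0.01 with no filter, and the cytosolic median was -0.06 with DESeq2. Leaving out 1 library gave cytosolic medians of -0.07 to -0.02 and mitochondrial medians of -0.27 to -0.16. The difference of the log2 ratio of cytosolic to mitochondrial genes was 0.21 on the mean of log2 CPM. SARS2 did not pass the filter on low counts and entered the fit with DESeq2 and with no filter. Thinning to the smallest library ended the calls of EPRS1 and VARS2.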
